A study of Homo sapiens with 6 samples.

Results

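Dp44mT (di-2-pyridylketone 4,4-dimethyl-3-thiosemicarbazone) and desferrioxamine (DFO) were compared directly in DMS-53 cells after 24 h of exposure. DMS-53 is an established line from a human lung carcinoma of the small cell type. The arrays titled Dp44mT and DFO were taken, which gave 4 of the 6 arrays in the series: 2 with Dp44mT at 25 µM (sets 1 and 2) and 2 with DFO at 250 µM (sets 1 and 2). The other 2 arrays, from cells in control medium without a chelator, placed each gene relative to untreated cells. They also entered the normalization, the filter and the estimate of the spread behind each p-value and error. All groups share the cell line and the RPMI medium. The series' design text gives the higher DFO dose as an answer to its poor passage through cell membranes, so compound and dose cannot be told apart. The labels do not say whether sets 1 and 2 came from separate cultures, and the p-values and errors below therefore cover the variation among these arrays alone, whose origin may be technical.

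DFO is a bacterial siderophore that binds ferric iron and enters cells slowly. Dp44mT is a thiosemicarbazone that passes membranes readily and binds copper as well as iron, and its metal complexes can take part in redox reactions. Loss of iron stabilizes hypoxia-inducible factors (HIF), since the prolyl hydroxylases that mark them for destruction need iron, and raises transferrin receptor mRNA through the iron regulatory proteins. Oxidants and electrophiles free the transcription factor NRF2, which acts through antioxidant response elements, and zinc released in the cell activates MTF1, which acts through metal response elements of the metallothionein genes.

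Levels are log2(intensity + 16), quantile normalized over the 6 arrays and given in the order set 1, set 2, and every difference is Dp44mT minus DFO on that scale. The pseudocount of 16 makes fold changes of dim genes smaller than they are in the intensities. Median deposited intensities were between 83.6 and 88.9 on the control arrays and the chelator arrays of set 1, but 63.0 for DFO and 49.9 for Dp44mT in set 2. Those 2 dim arrays also stood apart after normalization, with scores of 48.3 (DFO) and 84.4 (Dp44mT) on a principal component that held 71.1% of the variance. The set 1 scores were −24.8 for DFO and 0.32 for Dp44mT. The median absolute difference of a gene between sets was 0.38 within Dp44mT and 0.37 within DFO, from single arrays. Between the 2 chelators it was 0.23, but from means of 2 arrays each, and averaging by itself lowers this value. The neuroendocrine markers of the cell line were present, with control levels of 12.76 and 12.65 for UCHL1, 9.41 and 9.57 for CHGA and 9.14 and 9.41 for SYP, and 17 of 20 listed markers were tested. Summed over the list, fibroblast markers were highest on the chelator arrays of set 2. The summed level of the 8 tested was 10.42 in control, 10.16 with DFO and 10.46 with Dp44mT in set 1, and 9.91, 11.19 and 11.39 in set 2. Summed levels of 7 endothelial markers behaved alike (10.59, 10.37 and 10.60 in set 1, 10.29, 11.33 and 11.54 in set 2). Those of 7 leukocyte markers were also highest with DFO (10.23) and Dp44mT (10.42) in set 2, against 9.59 to 10.08 on the other arrays. Single markers did not all follow these sums. In set 2, DCN reached 8.92 with DFO and 9.51 with Dp44mT, but FBN1 was highest with Dp44mT in set 1 (6.06). The endothelial marker EGFL7 was highest in control of set 2 (9.38). The part of these cell type markers in the results was not tested.

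The chelators differed most visibly in 4 groups of genes. Genes of the antioxidant response, with SRXN1 and OSGIN1 in front, stood higher with Dp44mT by a similar amount in both sets. Most metallothionein genes and the zinc exporter gene SLC30A1 stood far higher with Dp44mT in set 2, whereas in set 1 their differences were of both signs (list median 0.13). Many genes of the endoplasmic reticulum and amino acid stress responses were slightly higher with Dp44mT. Single genes of DNA synthesis (RRM2, TYMS), of secreted and matrix factors (CCN2, TGFB2, THBS1, IGFBP5) and of the lung and neuroendocrine lineage (SOX2, NKX2-1, INSM1) were lower with Dp44mT. The HIF and iron-responsive genes lay close together.

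No gene passed the test at an adjusted p under 0.05 in the direct comparison, a percentage called of 0 among 16868 genes (limma's moderated test, Benjamini-Hochberg adjustment, smallest adjusted p = 0.922). At an unadjusted p under 0.05 stood 718 genes, or 4.26% of those tested, of which 261 were higher and 457 lower with Dp44mT. The control arrays share in the estimate of the spread and lay closer together (median absolute difference between sets 0.16). With the 4 chelator arrays fitted alone, 302 genes had an unadjusted p under 0.05. The median 95% interval reached 0.64 to either side of a difference, which is 1.56-fold. The arrays of a set were not paired in this fit. A shift between sets that both chelators shared therefore adds to the width of the intervals. In what follows, differences are descriptions of these arrays. Both Dp44mT arrays lay above both DFO arrays for 2431 genes (14.4%) and below both for 2210 genes (13.1%), and these shares are the background for each count below. A separation of at least 2-fold without overlap was found for 32 genes higher with Dp44mT (0.19%) and for 101 genes lower (0.599%). All 133 had the same sign in both sets, and 5 higher and 55 lower genes reached 2-fold in each set by itself. The counts depend on which arrays are compared: they were 58 and 77 without DFO of set 1, 1024 and 652 without DFO of set 2, 1262 and 668 without Dp44mT of set 1, 46 and 279 without Dp44mT of set 2, and 118 and 220 in set 1 alone. With fewer chelator arrays, non-overlap is also met more easily. Of these 133 genes, 24.1% were higher, against 8.88% on the deposited scale (15 higher, 154 lower), where the median of all genes was −0.24, and 12.9% after scaling to array medians (23 higher, 156 lower), where it was −0.09. After quantile normalization, the median over all genes was 0.02.

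**Figure D1:**
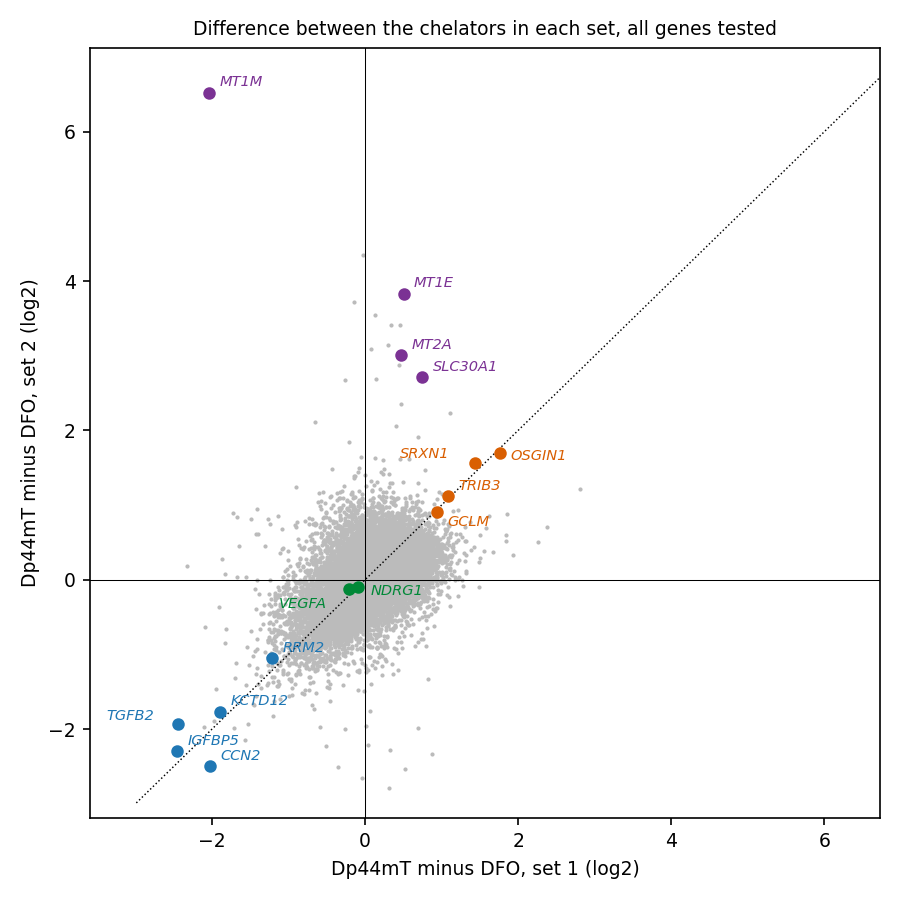
Difference between the chelators (log2, Dp44mT minus DFO) in set 1 on the horizontal axis and in set 2 on the vertical axis, 1 grey point per gene tested and coloured points for named genes, with the dotted line marking equal differences. SRXN1, OSGIN1, TRIB3, GCLM, RRM2 and KCTD12 lie near the line, whereas MT1E, MT2A and SLC30A1 lie well above it and MT1M has opposite signs in the 2 sets.

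The first group is the antioxidant genes controlled by NRF2. SRXN1 encodes sulfiredoxin, which repairs overoxidized peroxiredoxins. Its level was 9.89 and 9.84 in control, 10.10 and 9.81 with DFO and 11.53 and 11.38 with Dp44mT, in sets 1 and 2. The DFO arrays overlapped the control arrays, and both Dp44mT arrays were clearly higher. The difference was 1.50 (SE 0.19, 2.83-fold), 1.43 in set 1 and 1.57 in set 2, the largest moderated statistic of all genes higher with Dp44mT. OSGIN1, an oxidative stress-induced growth inhibitor, stood at 5.54 and 5.41 in control, 6.82 and 6.43 with DFO and 8.58 and 8.13 with Dp44mT. Its 3 groups formed 3 separate steps, and the difference between chelators was 1.73 (SE 0.25, 3.32-fold).

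Glutathione synthesis is set by the 2 subunits of glutamate-cysteine ligase. The modifier subunit gene GCLM was at 11.31 and 11.16 with DFO and 12.25 and 12.08 with Dp44mT, a difference of 0.93 (SE 0.19, 1.90-fold), while control stood at 10.82 and 11.05. The catalytic subunit gene GCLC was at 11.19 and 10.88 with DFO and 11.93 and 11.92 with Dp44mT, a difference of 0.89 (SE 0.19). Control levels of GCLC were 9.98 and 10.10, so both chelators lay above control and Dp44mT above DFO. The quinone reductase gene NQO1 differed by 0.82 (SE 0.17), with 10.85 and 10.70 against 11.62 and 11.58. The thioredoxin reductase gene TXNRD1 differed by 0.57 (SE 0.18), with 12.61 and 12.34 against 13.08 and 13.00. HMOX1, which encodes the haem-degrading enzyme haem oxygenase 1, was at 6.28 and 7.14 with DFO and 7.25 and 8.32 with Dp44mT. Its 4 chelator arrays did not overlap, and the difference was 0.96 in set 1 and 1.18 in set 2. The levels of the sets lay further apart than for the other genes. In the fit without pairing by set, the difference of 1.07 had an interval from −0.08 to 2.22. Further probe sets on the array gave 0.84 and 0.91 for GCLM, 0.37 and 0.93 for GCLC, and close to 1.00 for both of NQO1.

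Of 22 listed NRF2 targets 21 were tested, and both Dp44mT arrays lay above both DFO arrays for 16 of them (76.2%, against 14.4% of all genes), below for 0. None passed the adjusted test, and 8 had an unadjusted p under 0.05. The list median was 0.41, with 0.46 in set 1 and 0.38 in set 2, and 0.11 on the deposited scale, where all genes had a median of −0.24. TXN, the gene of thioredoxin itself, was the one member with a difference below 0 (−0.04). Relative to control, the median of the list was 0.09 with DFO and 0.66 with Dp44mT. Outside the naming rule, 2 aldo-keto reductase genes were singled out after their values were seen. AKR1C1, a member of the list and part of its counts and median, was higher with Dp44mT by 0.86. AKR1B10, which is not in the list, was higher by 2.01, with 2.80 in set 1 and 1.21 in set 2.

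The RefSeq promoter table (GRCh38.p14) holds an entry for 17 of the listed NRF2 targets. The antioxidant response element was searched as TGACNNNGC on both strands of the 250 bases before the start of each gene. It was found for 4 of the 17 (GCLM, ME1, PGD and TXNRD1), and for 11.0% of all 27305 promoters and 12.0% of those of tested genes. Stretches around the matches of GCLM (chr1:93909444-93909476, minus strand) and TXNRD1 (chr12:104215668-104215700, plus strand) are shown because both genes stood higher with Dp44mT, with the match in capitals:

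GCLM: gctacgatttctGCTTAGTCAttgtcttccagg

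TXNRD1: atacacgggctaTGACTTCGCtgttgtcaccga

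In GCLM the letters of the element are read on the opposite strand. The 9 letters of such a match are a description of the sequence and no evidence of binding in these cells.

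**Figure D2:**
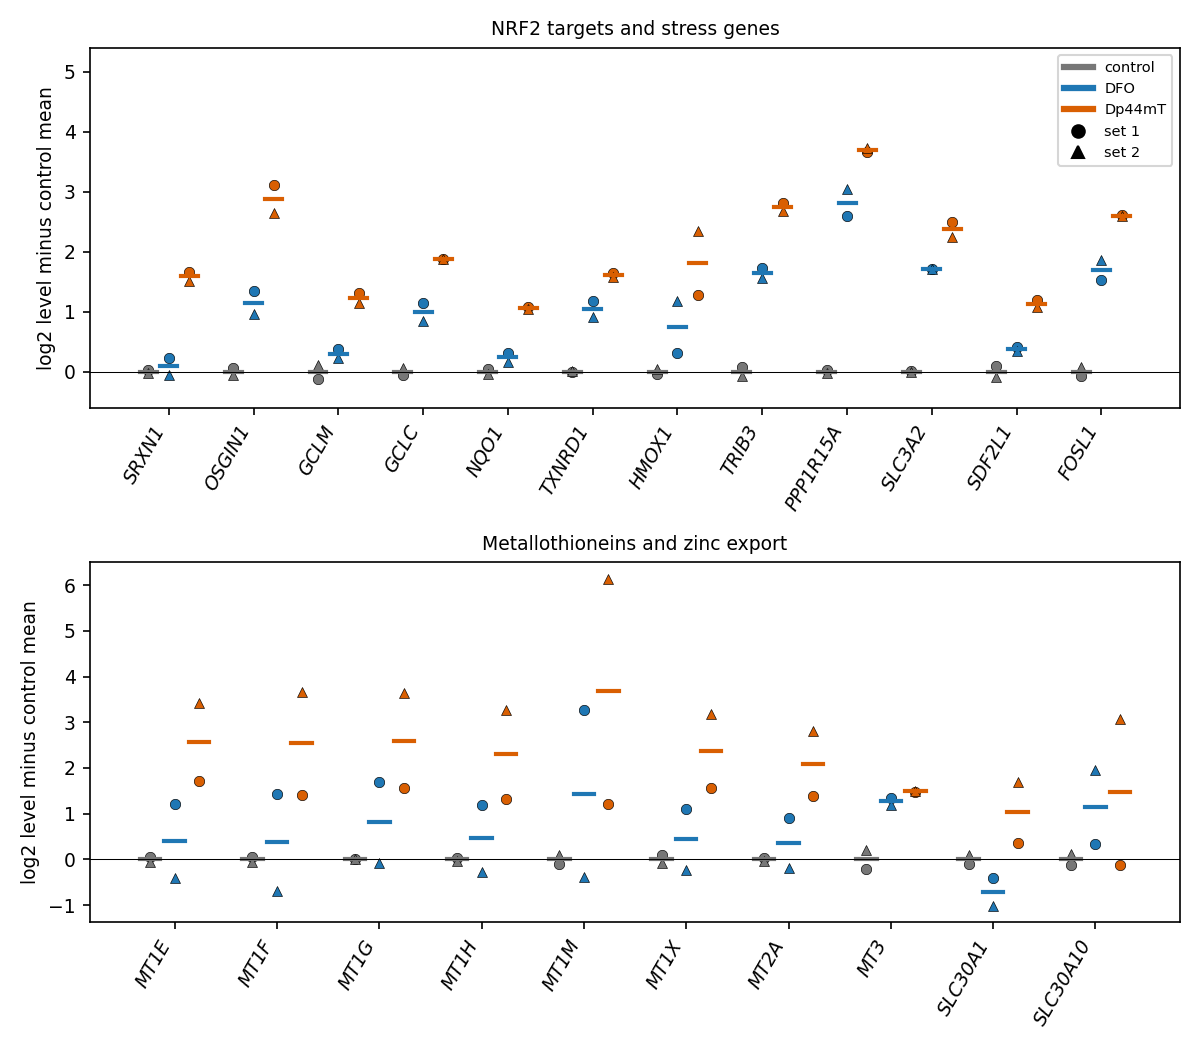
Levels of genes higher with Dp44mT than with DFO on each of the 6 arrays, as log2 level minus the control mean of the gene (vertical axis), with circles for set 1, triangles for set 2 and a bar at each group mean. For SRXN1, GCLM and NQO1 the DFO points lie near control and the Dp44mT points above, and for MT1E, MT1X and MT2A the Dp44mT triangle of set 2 stands far above all other points.

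Metallothioneins are small cysteine-rich proteins that bind zinc and copper. MT2A was at 10.32 and 10.26 in control, 11.19 and 10.09 with DFO and 11.66 and 13.10 with Dp44mT. The set 2 array of Dp44mT was the highest and the set 2 array of DFO the lowest of the 6. The difference of 1.74 (SE 0.58, 3.34-fold) was thus composed of 0.47 in set 1 and 3.01 in set 2. MT1X (10.75 and 9.40 with DFO, 11.21 and 12.81 with Dp44mT) had 0.46 in set 1 and 3.41 in set 2. MT1E (10.71 and 9.09 with DFO, 11.22 and 12.92 with Dp44mT) had 0.50 and 3.83. In all 3 genes the chelators did not overlap in level, but the difference was far larger in set 2 than in set 1.

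MT1F, MT1G, MT1H and MT1M, which the naming rule did not choose, had set 1 differences of −0.02, −0.15, 0.13 and −2.04 and set 2 differences of 4.35, 3.72, 3.54 and 6.53. MT1M reached 8.81 with DFO in set 1 and 5.17 in set 2, and with Dp44mT 6.77 and 11.69. In set 1 it was thus higher with DFO and in set 2 higher with Dp44mT. The brain isoform gene MT3 differed little, by 0.23 with an interval from −0.31 to 0.76. The metallothionein isoforms are near-identical in sequence, and the probe sets of MT1E, MT1X and MT2A carry the manufacturer's mark for probes shared between transcripts, so the isoforms cannot be held apart with certainty.

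SLC30A1, which encodes the zinc exporter ZnT1, has no such near-identical copies. Its level was 8.62 and 8.82 in control, 8.32 and 7.71 with DFO and 9.07 and 10.42 with Dp44mT. The DFO arrays lay below control and the Dp44mT arrays above it. The difference was 1.73 (SE 0.49, 3.32-fold), with 0.75 in set 1 and 2.72 in set 2, and a second probe set gave 2.65. SLC30A10, a manganese exporter gene, differed by −0.46 in set 1 and 1.11 in set 2. Of the 11 listed metallothionein and zinc export genes 10 were tested, and Dp44mT lay above DFO without overlap for 6 and below for 0. The list median was 1.81, with 0.13 in set 1 and 3.48 in set 2. Without both set 2 chelator arrays the median was 0.13.

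The metal response element core was searched as TGCACNC and TGCGCNC on both strands, again over 250 bases. Of 5 genes of the list with a RefSeq promoter entry, 4 had at least 1 match, against 24.7% of all promoters and 31.0% of those of tested genes. Neither motif was particular to its list. The metal response core was also found for 8 of 17 NRF2 targets (47.1%), and the antioxidant response element for 3 of these 5 genes. MT1H had 8 matches, MT2A 7, MT1X 4, SLC30A1 1 and SLC30A10 0. The upstream sequences of MT1X (chr16:56682308-56682435, plus strand) and MT2A (chr16:56608334-56608583, plus strand) are given with the matches in capitals, because both genes differed between the sets in the same manner:

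MT1X: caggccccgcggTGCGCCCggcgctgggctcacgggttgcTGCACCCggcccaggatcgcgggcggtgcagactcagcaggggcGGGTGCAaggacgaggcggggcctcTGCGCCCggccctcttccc

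MT2A: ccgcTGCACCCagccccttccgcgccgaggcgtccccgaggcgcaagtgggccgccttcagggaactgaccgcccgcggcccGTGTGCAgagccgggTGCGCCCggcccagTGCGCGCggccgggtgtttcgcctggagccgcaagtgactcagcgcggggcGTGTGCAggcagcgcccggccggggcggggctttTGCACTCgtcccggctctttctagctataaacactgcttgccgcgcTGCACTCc

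Copper handling genes gave few differences of size. Of 18 tested, Dp44mT lay above DFO for 1 and below for 6 (33.3%, against 13.1% of all genes), with a median of −0.07. The exception was ATP7B, the copper-exporting ATPase altered in Wilson disease. It was at 8.01 and 8.13 in control, 8.46 and 8.35 with DFO and 7.27 and 6.72 with Dp44mT. DFO lay above control and Dp44mT below it, and the difference was −1.41 (SE 0.24, 2.66-fold lower). Its relative ATP7A differed by −0.34, with an interval from −0.82 to 0.15. The copper importer gene SLC31A1 differed by 0.16 (−0.30 to 0.62) and MTF1 by 0.20 (−0.42 to 0.81), neither chosen by the naming rule.

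In the integrated stress response, ATF4 raises genes of amino acid supply and of feedback. TRIB3, a pseudokinase that restrains ATF4 and AKT, was at 9.27 and 9.13 in control, 10.93 and 10.75 with DFO and 12.01 and 11.87 with Dp44mT. The 3 groups stood in the same order in both sets, and the difference of 1.10 (SE 0.18, 2.14-fold) was 1.08 in set 1 and 1.12 in set 2. PPP1R15A (GADD34), which brings a phosphatase to eIF2α, was at 9.92 and 10.38 with DFO and 11.00 and 11.06 with Dp44mT, a difference of 0.88 (SE 0.21). The amino acid transporter subunit gene SLC3A2 differed by 0.66 (SE 0.18) and the transcription factor gene CEBPG by 0.65 (SE 0.19). DDIT3, the gene of the stress factor CHOP, differed by 0.47, with an interval from −0.01 to 0.95, and stood 3.10 above control with DFO and 3.57 with Dp44mT. Of 33 tested genes of the ATF4 list, Dp44mT lay above DFO for 21 (63.6%), overlapped it for 9 and lay below for 3, with a median of 0.33. Outside the naming rule, the serine synthesis gene PSPH (−0.37) and the transcription factor gene ATF5 (−0.25) had differences below 0.

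The unfolded protein response, which expands the folding machinery of the endoplasmic reticulum, had the highest share of genes above without overlap among the 28 lists. Dp44mT lay above DFO for 19 of 23 genes (82.6%) and below for 1, by small amounts. SDF2L1, a chaperone cofactor gene, was at 9.29 and 9.23 with DFO and 10.08 and 9.97 with Dp44mT, a difference of 0.76 (SE 0.17). The co-chaperone gene DNAJB9 differed by 0.51 (SE 0.17), the disulfide isomerase gene PDIA4 by 0.47 (SE 0.16) and MANF, which encodes a secreted factor of stressed reticulum, by 0.44 (SE 0.16). None passed the adjusted test. The list median was 0.35, with 0.27 in set 1 and 0.42 in set 2. On the deposited scale, the medians of this list and of the ATF4 list were 0.06 and 0.08, above the −0.24 of all genes there by amounts similar to those after normalization.

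Among immediate early genes, FOSL1, a partner of JUN in AP-1, was at 6.61 and 6.76 in control, 8.21 and 8.54 with DFO and 9.30 and 9.28 with Dp44mT. Dp44mT exceeded DFO in both sets, and the difference was 0.91 (SE 0.19). CSRNP1 and EGR1, genes of transcription factors induced within the same programme, differed by 0.69 (SE 0.21) and 0.67 (SE 0.20). ATF3, a stress-induced repressor gene, differed by 0.22 (−0.35 to 0.80), and stood 4.40 above control with DFO and 4.62 with Dp44mT. Dp44mT lay above DFO for 15 of 30 genes and below for 2. The largest difference of the list was that of CCN2 (−2.26), which is also in the TGF-beta list and is described there. The list median was 0.22, and −0.07 on the deposited scale, where all genes had −0.24. Of 27 proteasome subunits, 14 lay above (51.9%), with a median of 0.14. Of 17 genes of sterol synthesis, 5 lay above, with a median of 0.21. Both medians were −0.14 on the deposited scale, which also is above that of all genes there.

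**Figure D3:**
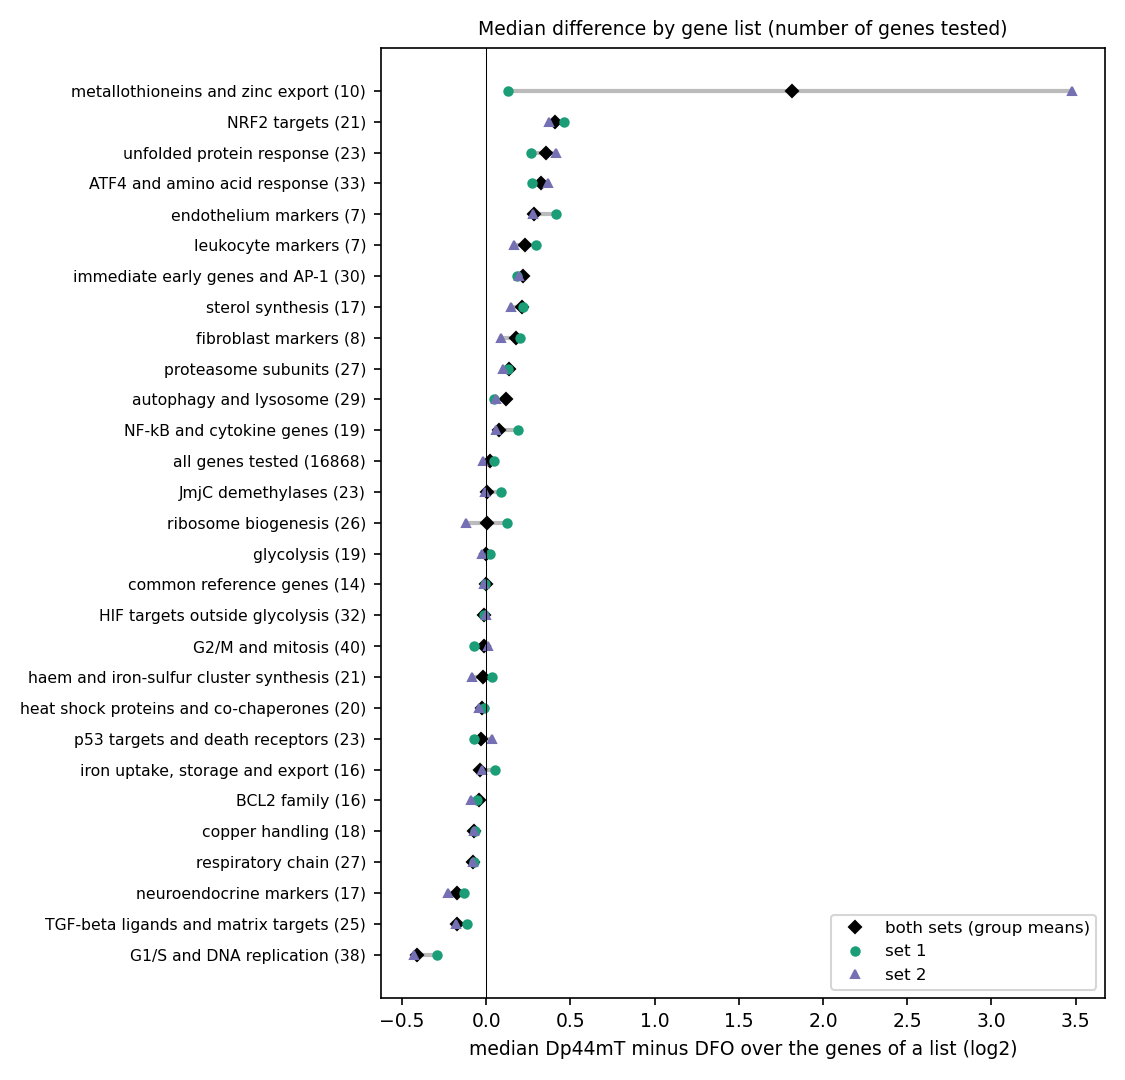
Median difference between the chelators (log2, Dp44mT minus DFO, horizontal axis) over the tested genes of each list (vertical axis), for the group means and within set 1 and set 2. Metallothioneins and zinc export have 0.13 in set 1 and 3.48 in set 2, NRF2 targets have similar values in both sets, and G1/S and DNA replication has the lowest median.

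Genes lower with Dp44mT outnumbered those higher among separations of at least 2-fold. Ribonucleotide reductase makes deoxynucleotides with an iron centre in its small subunit, which RRM2 encodes. RRM2 was at 11.20 and 11.17 in control, 11.50 and 11.46 with DFO and 10.29 and 10.42 with Dp44mT. The chelators thus lay on opposite sides of control, in both sets. The difference was −1.13 (SE 0.16, 2.19-fold lower), and a second probe set gave −1.04. Thymidylate synthase (TYMS) was at 11.35 and 11.28 with DFO and 10.66 and 10.64 with Dp44mT against 11.45 and 11.45 in control, a difference of −0.67 (SE 0.16). DFO was close to control there, and Dp44mT lower, although 2 further TYMS probe sets gave −0.72 and 0.16. CCNE2, the gene of cyclin E2, differed by −0.70 (SE 0.23) and the S-phase transcription factor gene E2F2 by −0.60 (SE 0.18), with DFO above control in the first and near it in the second.

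CCND1, which encodes cyclin D1, was at 8.19 and 8.20 in control, 9.48 and 10.00 with DFO and 8.50 and 9.25 with Dp44mT. The level was above control with both chelators and higher with DFO (difference −0.87, SE 0.32). Of 38 tested genes of G1/S and DNA replication, Dp44mT lay below DFO for 16 (42.1%, against 13.1% of all genes) and above for 0. None passed the adjusted test, 7 had an unadjusted p under 0.05, and the median was −0.41, with −0.29 in set 1 and −0.43 in set 2. It was −0.11 without the set 2 array of Dp44mT and −0.60 without its set 1 array. Genes of G2/M and mitosis did not share this pattern, with Dp44mT below DFO for 6 of 40 and above for 3 and a median of −0.01. CDC20, an activator of the anaphase-promoting complex, was at 10.63 and 10.26 in control, 8.74 and 8.51 with DFO and 9.89 and 9.43 with Dp44mT. Both chelators lay below control, and DFO further below, so that the difference was 1.03 (SE 0.25). The mitotic kinesin gene KIF11 went the other way, with a difference of −0.85 (SE 0.32). CDKN1A, the gene of the cell cycle inhibitor p21, differed by −0.05 (−1.01 to 0.91).

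The 3 lowest differences of all genes tested were those of IGFBP5, which is in no list, and of CCN2 and TGFB2, both in the list of TGF-beta ligands and matrix targets. CCN2, a matricellular factor (CTGF) induced by TGF-beta and YAP, was at 5.15 and 4.84 in control, 8.29 and 7.80 with DFO and 6.26 and 5.30 with Dp44mT. It stood far above control with DFO and slightly above with Dp44mT. The difference was −2.26 (SE 0.38, 4.80-fold lower). The control level is near the floor set by the pseudocount (deposited intensities 21.6 and 15.3), as is Dp44mT in set 2 (15.6), against 403 and 159 with DFO. TGFB2, a TGF-beta ligand gene, was at 10.21 and 9.80 in control, 8.88 and 7.97 with DFO and 6.43 and 6.04 with Dp44mT. Both chelators lay below control, by −1.58 with DFO and −3.77 with Dp44mT. The difference between them was −2.19 (SE 0.37, 4.57-fold lower), and 3 further probe sets gave −0.18 to −1.92.

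IGFBP5, a secreted binding protein of insulin-like growth factors, was at 8.29 and 8.06 in control, 9.51 and 8.62 with DFO and 7.05 and 6.32 with Dp44mT. The chelators lay on opposite sides of control, and the difference was −2.38 (SE 0.40, 5.20-fold lower). Its 5 other probe sets gave −1.52 to 0.41, with a median of −0.63. THBS1, the matrix glycoprotein thrombospondin 1, differed by −1.35 (SE 0.36). Its 6 other probe sets gave −1.31 to 0.32, with a median of −0.38. CDC42EP3, an effector of the GTPase CDC42, had the lowest moderated statistic of all. It was at 9.97 and 9.97 in control, 10.85 and 10.99 with DFO and 9.40 and 9.31 with Dp44mT, and its difference was −1.56 (SE 0.17, 2.96-fold lower). Its 3 groups did not overlap, and 3 other probe sets gave −1.18 to −2.00. KDR, the VEGF receptor 2 gene, was at 7.75 and 6.80 with DFO and 6.04 and 5.48 with Dp44mT, against 6.26 and 5.72 in control. Both DFO arrays lay above both control arrays and the Dp44mT arrays did not, and the difference between chelators was −1.51 (SE 0.41). Over the TGF-beta list, Dp44mT lay below DFO for 10 of 25 genes (40.0%) and above for 4, with a median of −0.18. The collagen gene COL1A1 (0.54) and CCN1 (0.61), a relative of CCN2, had differences above 0.

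**Figure D4:**
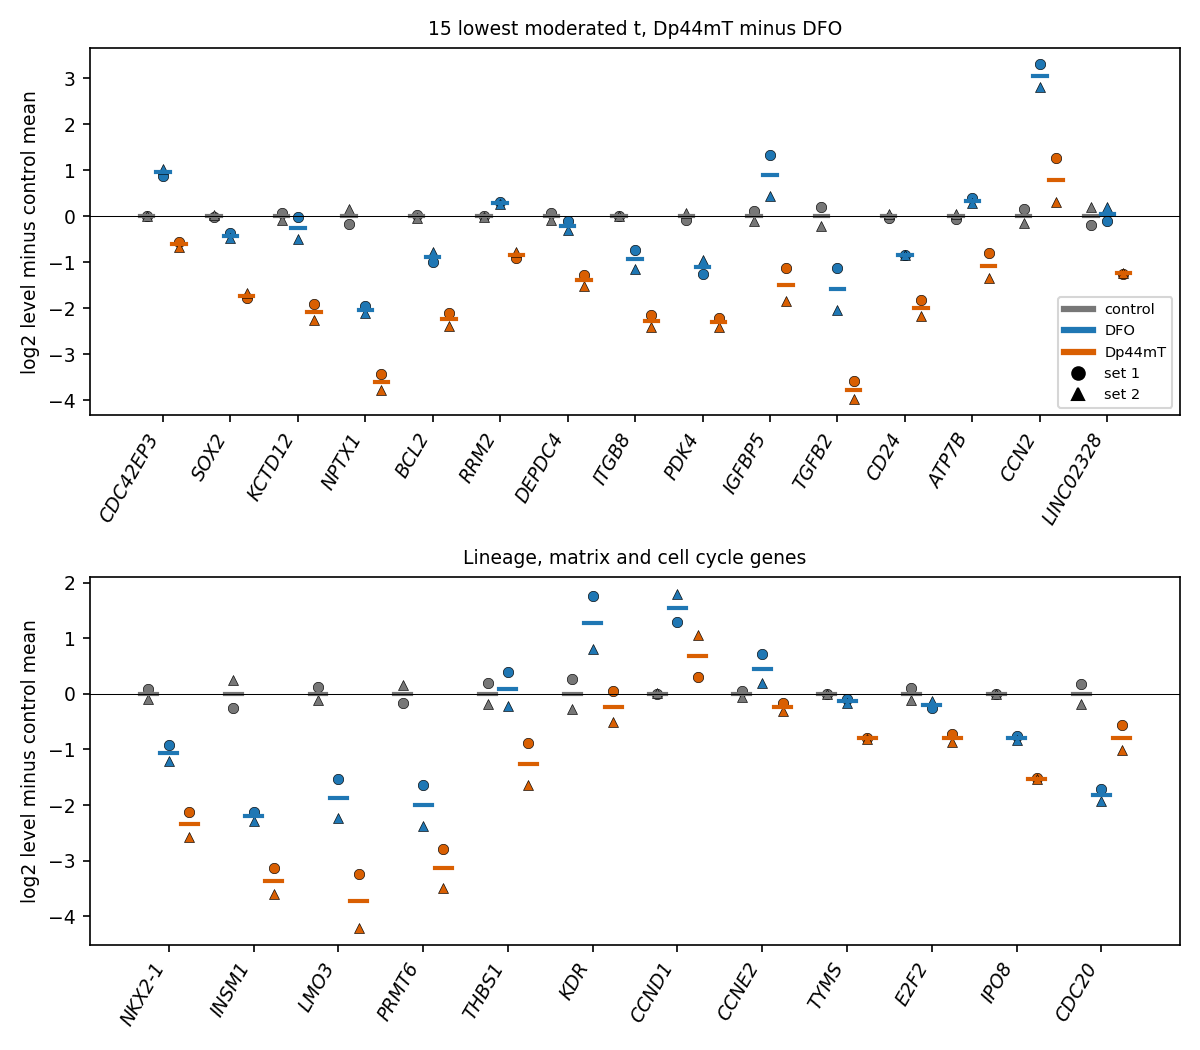
Levels of genes lower with Dp44mT than with DFO, and of CDC20, on each of the 6 arrays, as log2 level minus the control mean of the gene (vertical axis), with circles for set 1, triangles for set 2 and a bar at each group mean. CDC42EP3, RRM2, IGFBP5 and ATP7B lie above control with DFO and below it with Dp44mT, whereas SOX2, NPTX1, BCL2 and TGFB2 lie below control with both chelators and lowest with Dp44mT.

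The lineage genes SOX2, NKX2-1 and INSM1 stood below control with both chelators. Of the 101 genes at least 2-fold lower with Dp44mT, 61 lay below control with both chelators and lowest with Dp44mT, 24 lay below control with Dp44mT alone, and 6 lay above control with DFO and below it with Dp44mT. The share of all genes in these positions was not counted. Choosing genes for low Dp44mT arrays by itself favours Dp44mT below control, so the counts only describe these 101 genes. SOX2, a transcription factor gene of stem cells and of small cell lung cancer, was at 10.20 and 10.24 in control, 9.86 and 9.74 with DFO and 8.45 and 8.55 with Dp44mT. The step from DFO to Dp44mT (−1.30, SE 0.17, 2.46-fold lower) was larger than that from control to DFO (−0.42), and 2 further probe sets gave −0.84 and −0.45. NKX2-1, the lung lineage factor TTF-1, was at 10.68 and 10.51 in control, 9.68 and 9.38 with DFO and 8.47 and 8.02 with Dp44mT. Its steps were of similar size, −1.06 from control to DFO and −1.28 (SE 0.24) from DFO to Dp44mT, and a second probe set gave −1.34 between the chelators. INSM1, a zinc finger factor of neuroendocrine cells, was at 12.17 and 12.68 in control, 10.30 and 10.15 with DFO and 9.30 and 8.82 with Dp44mT, a difference of −1.16 (SE 0.27), and −0.65 in a second probe set. LMO3, a LIM-domain cofactor gene, differed by −1.85 (SE 0.41), but by −0.30 in a second probe set.

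The secretory markers of the same lineage differed less. CHGA, which encodes chromogranin A, differed by 0.08 (−0.35 to 0.52) and UCHL1 by 0.10 (−0.32 to 0.51), while the secretogranin gene SCG2 differed by −0.55. Of 17 neuroendocrine markers, Dp44mT lay below DFO for 7 (41.2%) and above for 2, with a median of −0.17. Further genes at the bottom of the ranking were KCTD12, an auxiliary subunit of GABA-B receptors, and NPTX1, a neuronal pentraxin. KCTD12 was at 9.95 and 9.80 in control, 9.87 and 9.39 with DFO and 7.98 and 7.62 with Dp44mT, a difference of −1.83 (SE 0.25, 3.55-fold lower). DFO was near control for KCTD12, and only Dp44mT lay well below. NPTX1 was at 10.92 and 11.25 in control, 9.13 and 8.98 with DFO and 7.67 and 7.32 with Dp44mT, a difference of −1.56 (SE 0.22).

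Other low-ranking genes have roles in survival, adhesion and metabolism. BCL2, the anti-apoptotic gene, was at 10.47 and 10.40 in control, 9.45 and 9.66 with DFO and 8.34 and 8.06 with Dp44mT. The difference of −1.35 (SE 0.19) came from the brightest of its probe sets, and the 3 others gave −0.88 to 0.31. The integrin gene ITGB8 differed by −1.34 (SE 0.22), with 3 further probe sets at −0.39 to −1.0. PDK4, a kinase that inhibits pyruvate dehydrogenase, differed by −1.20 (SE 0.20), and CD24, a surface glycoprotein gene, by −1.15 (SE 0.19). All 5 further probe sets of CD24 were lower too, by −0.97 to −1.59. The arginine methyltransferase gene PRMT6 differed by −1.13 (SE 0.36). CCDC154 was at 6.91 and 6.10 with DFO and at 4.80 and 4.12 with Dp44mT, where it lay under the filter value of 5.55 (deposited intensities 13.9 and 0.0403). It was lower with Dp44mT, but the pseudocount sets the size of its difference, and no fold is given. DEPDC4 and the non-coding gene LINC02328 completed the 15 lowest, at −1.18 and −1.28. Of the 15 highest, RHD, TLR6, DNAH9, GH2, LINC00477 and DDC-AS1 reached at most 8.15 on any chelator array, the DFO arrays of RHD, DNAH9 and GH2 lay under the filter value, and a second probe set of TLR6 gave −0.01. GRB10, an adaptor of insulin receptor signalling, differed by 0.83 (SE 0.17).

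Against these separations stand the genes both chelators are known for. NDRG1, a metastasis suppressor gene that responds to iron depletion, was at 10.80 and 10.51 in control, 12.66 and 12.86 with DFO and 12.58 and 12.76 with Dp44mT. The chelator arrays overlapped, and the difference was −0.09, with an interval from −0.60 to 0.41. Within the sets it was −0.09 and −0.10. VEGFA was at 9.58 and 9.44 in control, 11.93 and 12.09 with DFO and 11.72 and 11.96 with Dp44mT, a difference of −0.17 (−0.64 to 0.30), and its 3 other probe sets gave 0.04 to 0.18. The transferrin receptor gene TFRC was at 11.55 and 11.71 in control, 12.47 and 12.46 with DFO and 12.38 and 12.28 with Dp44mT, a difference of −0.14 (−0.56 to 0.29). Both Dp44mT arrays of TFRC lay slightly below both DFO arrays, and 3 further probe sets gave −0.13 to −0.55. BHLHE40, a hypoxia-inducible repressor of clock genes, stood 5.28 above control with DFO and 5.39 with Dp44mT, which differed by 0.11 (−0.30 to 0.52). EGLN3, a HIF prolyl hydroxylase gene, differed by −0.29 (−1.08 to 0.49), with opposite signs in the 2 sets. The intervals leave room for differences in either direction, so equality of the chelators was not shown.

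Over 32 HIF targets outside glycolysis, Dp44mT lay above DFO for 6 (18.8%) and below for 7 (21.9%), near the 14.4% and 13.1% of all genes, with a median of −0.01. The medians against control, which share the control arrays, were 2.30 for DFO and 2.27 for Dp44mT. Within the list, RORA and INSIG2 had the lowest unadjusted p, with −0.62 (SE 0.19) and −0.52 (SE 0.19), both above control with each chelator and higher with DFO, while 6 other RORA probe sets gave −0.41 to 0.29. Glycolysis (19 genes, 4 above and 5 below, median 0.00), iron uptake, storage and export (16 genes, 2 and 2, median −0.04), and heat shock proteins and co-chaperones (20 genes, 4 and 2, median −0.02) had medians near that of all genes. DNAJB1, a heat-inducible co-chaperone gene, differed by −0.03 (−0.63 to 0.57). HSPA1A, HSPA1B and HSPA8 of the heat shock list were not tested, since their probe sets carry several symbols. Of the remaining lists, the medians were 0.07 for NF-kB and cytokine genes (19), −0.03 for p53 targets and death receptors (23), 0.12 for autophagy and lysosome (29), 0.00 for ribosome biogenesis (26), −0.08 for the respiratory chain (27), −0.02 for haem and iron-sulfur cluster synthesis (21), 0.00 for JmjC demethylases (23), −0.04 for the BCL2 family (16) and 0.00 for common reference genes (14). IPO8, a reference gene in some studies, differed by −0.73 (SE 0.16).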

How the data were processed

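The deposited series matrix gives 1 intensity per probe set and array on a linear scale. The submitters' processing notes name Affymetrix Expression Console 1.1, and summarization and scaling are not given in the sources used here. For each of 6 arrays, 54675 probe sets were read. The deposited intensities were converted to log2(intensity + 16) and quantile normalized together in R 4.3.3 with limma 3.58.1. A single gene symbol was given for 41097 probe sets, several for 1801 and none for 11777. The single-symbol probe set with the highest mean stood for a gene, and genes with a mean under the 25th percentile of all probe sets (5.55) were left out, which left 16868 genes. Dp44mT minus DFO was tested by limma's moderated test (two-sided, all 3 groups fitted, 3 residual and 2.22 prior degrees of freedom) with Benjamini-Hochberg adjustment at 0.05. With 2 against 2 arrays, an exact permutation test has a smallest two-sided p of 0.333 and was not used. On simulated data, the fit returned differences of the size put in, but 2-fold differences were almost never called at this number of arrays. The simulated noise was independent between arrays, whereas the chelator arrays of a set deviated together in the data, so the simulation does not give the rate of calls here.

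Groups, genes and lists were chosen with earlier results of these data known. Genes named by rule were the 15 highest and 15 lowest moderated statistics with arrays not overlapping and the same sign in both sets, a list of anchor genes (HSPA1A, whose probe sets carry several symbols, was not tested), and up to 4 genes per list with the smallest p. Counts of genes at least 2-fold apart were added after seeing that no gene passed. Alternatives changed the scaling, pseudocount, filter, probe set rule, arrays and spread model.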

Additional observations from a re-analysis of the deposited data

How the results depend on the processing

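No gene passed (limma, adjusted p under 0.05) under any of the 17 alternatives or without both set 2 chelator arrays, which was added after seeing that they stand apart. The smallest adjusted p ran from 0.133 with an intensity trend to 1.00 without the set 1 array of DFO, and genes at an unadjusted p under 0.05 numbered 100 on the deposited scale and 2256 without both set 2 chelator arrays. The numbers of genes at least 2-fold higher and lower without overlap, 32 and 101, became 15 and 154 on the deposited scale, 23 and 156 after median scaling, 50 and 180 with a pseudocount of 1, 22 and 66 with a pseudocount of 32, 22 and 60 with probe sets averaged, 55 and 250 for probe sets not collapsed to genes, and 118 and 220 without both set 2 chelator arrays. When 1 array at a time was left out, they ran from 32 to 1262 higher and from 77 to 668 lower. The highest counts came without the set 1 array of Dp44mT (1262 and 668) or the set 2 array of DFO (1024 and 652). Without the set 1 array of DFO they were 58 and 77, and without the set 2 array of Dp44mT 46 and 279. Each of these settings compares 1 array with 2, where non-overlap is met more easily, so the counts are not on a par with 32 and 101. What sets the high counts apart was not tested. The set number as a replicate block called 0 genes, with 1215 at an unadjusted p under 0.05 and a smallest adjusted p of 0.634. Deviations of the sets correlated at 0.84 between DFO and Dp44mT but at −0.25 and −0.35 with control. The chelator arrays of a set thus deviated together and the control arrays did not follow, and the labels do not say what a set is.

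Of 73 named genes, 8 had a change of sign under some setting. RORA was at 0.11 with a pseudocount of 32, where another of its probe sets had the highest mean. The scalings move all genes (medians −0.24 deposited, −0.09 after median scaling). MT3 was at −0.14 and BHLHE40 at −0.22 on the deposited scale, BHLHE40 at −0.078 after median scaling, each above the median of all genes there, and VEGFA at 0.034 with probe sets averaged. With 1 array left out, DNAJB1 ran from −0.23 to 0.18, CDKN1A from −0.50 to 0.40, NDRG1 from −0.19 to 0.00424 and EGLN3 from −0.64 to 0.047. The medians of 19 of 28 lists had another sign under some setting, the shifted scalings included, and those of the other 9 kept theirs: metallothioneins and zinc export, NRF2 targets, ATF4 and amino acid response, unfolded protein response, G1/S, TGF-beta, neuroendocrine markers, leukocyte markers and reference genes. The dim set 2 chelator arrays and the 2 arrays per group limit the precision.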

Other observations

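Further genes at least 2-fold apart, in no list except for E2F8, were singled out after their values were seen. GPAT3, a glycerol-3-phosphate acyltransferase gene of lipid synthesis, was higher with Dp44mT by 1.67, with 1.11 in set 1 and 2.23 in set 2. CNMD, which encodes chondromodulin, differed by 1.88, of which nearly all came from set 2 (3.41, against 0.33 in set 1). SLC16A14, an orphan member of the monocarboxylate transporter family, was at 9.18 and 8.45 with DFO and 7.21 and 6.56 with Dp44mT, on opposite sides of the control levels of 7.48 and 7.33. The GABA-A receptor subunit gene GABRB2 differed by −1.86. E2F8, an atypical E2F repressor gene, differed by −1.33, the lowest value in the list of G1/S and DNA replication. Of the 32 genes higher with Dp44mT, 18 had DFO arrays that overlapped control and Dp44mT arrays above it, 5 lay above control with both chelators and 4 lay below control with DFO and above it with Dp44mT. Here too the share of all genes in these positions was not counted, and the choice of genes favours Dp44mT above control. Over all 16868 genes, the differences of set 1 and set 2 correlated at 0.49 across genes, which are not independent replicates.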
